A study of Mus musculus with 5 samples.

Results

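RNA-Seq counts of 34 genes that mark endothelial cells were described in GFP-sorted cells of the neonatal mouse lung, out of 23478 genes counted in all. The rule that chose them was by symbol, as markers of the endothelium in general, of lung capillaries and of lymphatic vessels, and used no measured value. All 34 were found in the count table, all 34 passed the filter on low counts, and the lowest count of any of them in any library was 70. The question was how much endothelial RNA the sorted cells carried, how the markers varied among the libraries, and whether they differed between control and Igf1r-deleted mice.

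All mice carried Gli1-CreERT2, a tamoxifen-inducible Cre expressed from the Gli1 gene of a subset of lung fibroblasts, and the Rosa26-eGFP reporter, which turns cells green once Cre has acted. Control mice (2 libraries) had 1 floxed and 1 wild-type allele of Igf1r, the receptor of insulin-like growth factors, and Igf1r-deleted mice (3 libraries) had 2 floxed alleles. Tamoxifen (100 µg per pup) was given on both P0 and P1, and GFP-positive cells were collected from the lung at P6. The control cells therefore had also been exposed to Cre and tamoxifen and could lose 1 allele. The mice were of mixed background and both sexes, and the number of pups behind each library was not given in the sources used here. Igf1r was at 324 and 324 CPM (counts scaled to library size with TMM factors) in the control libraries and at 140, 177 and 194 CPM in the deleted ones.

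Endothelial cells line blood and lymphatic vessels and are held together by junction proteins such as VE-cadherin and claudin-5. They are maintained by vascular endothelial growth factor and angiopoietin receptors, and their identity is set by transcription factors of the ETS and SOX families. In the lung they form the dense capillary bed that faces the alveolar epithelium, which expands while the alveoli are divided after birth.

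The libraries are labelled as fibroblasts, and the levels of the marker genes were first compared with that label. Divided by exon length, the endothelial markers had a median of 6.58 CPM per kb in the control libraries, while 15 fibroblast markers had a median of 186 CPM per kb. The fibroblast markers ranged from 8.08 to 1482 CPM per kb and the endothelial ones from 0.613 CPM per kb for Prox1 to 71.4 CPM per kb for Cldn5. Epithelial markers (20 genes, median 9.96 CPM per kb) and leukocyte markers (19 genes with a length, median 7.66 CPM per kb) were at levels like those of the endothelial markers. All 34 endothelial markers were detected in every library, and together they held between 0.0825% and 0.202% of a library's counts. The described sort selected GFP, and the sources used here name no step that removed CD31-positive cells at that sort. The study describes the reporter of this Cre line as absent from endothelial cells, and the source of the endothelial RNA in these libraries was not tested.

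**Figure D1:**
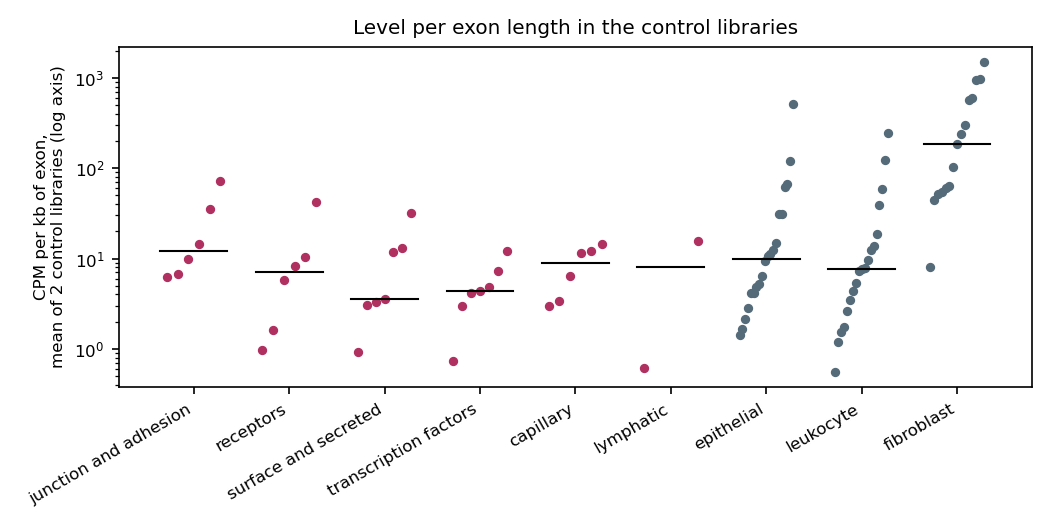
Level of each marker gene per kb of exon in the control libraries (CPM per kb, log axis), as the mean of the 2 libraries, for the 6 roles of the endothelial markers and for 3 lists of other cell types. Each point is a gene and each line is the median of its list; the medians of the endothelial roles lie between 3.59 and 12.2 CPM per kb, against 186 CPM per kb for the fibroblast list.

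Junction and adhesion genes had the highest level per length, with a median of 12.2 CPM per kb over 6 genes in the control libraries. They were followed by the capillary genes (8.98), the lymphatic pair (8.12), the growth factor receptors (7.03), the transcription factors (4.33) and the surface and secreted proteins (3.59). The genes with the highest levels were Cldn5, Eng (42.4), Cdh5 (35.2) and Plvap (32.0), and those with the lowest were Prox1, Tal1 (0.726), Emcn (0.933) and Flt1 (0.977). Within each role the genes spread over a wider range than the medians of the roles did. Lyve1 and Prox1, both used to mark lymphatic vessels, lay far apart at 15.6 and 0.613 CPM per kb. Lyve1 is also made by some macrophages, and its RNA cannot be assigned to a vessel type in these libraries.

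Promoter windows of 300 bases, most of them upstream of the start of transcription (RefSeq, GRCm38.p6), were at hand for 16 of the 34 genes. They were searched on both strands for the letters CCGGAAG, bound by ETS factors such as ERG and FLI1, AACAAT, bound by SOX factors, and AGATAA, bound by GATA factors. The ETS letters were in the window of 1 of the 16 genes (Car4), against 9.93% of the 27025 genes with a window. The SOX letters were in those of 4 genes (Calcrl, Emcn, Erg and Tek, against 12.2% of all genes), and the GATA letters in those of 3 (Erg, Tal1 and Tek, against 12.7%). The window of Tek, the receptor of the angiopoietins, is shown as an example that holds both SOX and GATA letters. A window of Erg also holds both and is not shown. The window of Car4, a carbonic anhydrase of alveolar capillaries, is shown because it holds the only ETS match. The Tek window lies at chr4:94739039-94739338 and the Car4 window at chr11:84957504-84957803, both on the plus strand. Capitals mark the matches, of which the SOX letters of Tek and the ETS letters of Car4 are on the opposite strand, and a match describes the letters only.
Tek: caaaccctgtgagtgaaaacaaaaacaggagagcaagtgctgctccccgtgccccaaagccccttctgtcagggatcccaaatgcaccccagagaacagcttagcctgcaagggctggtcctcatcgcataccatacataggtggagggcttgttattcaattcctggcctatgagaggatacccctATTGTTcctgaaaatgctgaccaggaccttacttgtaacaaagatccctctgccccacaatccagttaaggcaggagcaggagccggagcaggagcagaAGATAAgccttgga
Car4: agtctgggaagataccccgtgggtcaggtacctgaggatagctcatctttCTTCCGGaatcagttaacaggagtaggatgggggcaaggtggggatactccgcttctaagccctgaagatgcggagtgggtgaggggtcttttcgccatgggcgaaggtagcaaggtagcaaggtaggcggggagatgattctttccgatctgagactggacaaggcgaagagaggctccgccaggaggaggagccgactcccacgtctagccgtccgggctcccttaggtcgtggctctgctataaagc

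Across the 5 libraries most of the markers followed a common order, in which the Igf1r-deleted libraries were the extremes and the controls lay between them. The 34 genes summed to 1431 and 1399 CPM in the control libraries and to 1336, 1909 and 806 CPM in the deleted ones. The means were 1415 ± 22.4 CPM (SD, n = 2) and 1350 ± 552 CPM (SD, n = 3), so the deleted libraries stood on both sides of the controls. Against the control mean, deleted replicate 2 was at 1.35, replicate 1 at 0.944 and replicate 3 at 0.570. The sum weighs the genes by their level. Per gene, the median log2 difference from the control mean was 0.43 in replicate 2, -0.11 in replicate 1 and -1.02 in replicate 3. In a bulk library fewer endothelial cells and less RNA per endothelial cell cannot be told apart.

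Of the 34 genes, 30 were highest in deleted replicate 2 (20% of all genes tested), 31 were lowest in deleted replicate 3 (20.4% of all) and 27 were both (3.32% of all). All 34 were higher in replicate 2 than in replicate 3, and 31 of them by at least 1.5-fold (9.28% of all). The median ratio of replicate 2 to replicate 3 was 2.74, and on the log2 scale it was 1.45 for the markers and -0.02 for all 15298 genes tested. Both controls lay between these libraries for 28 of the 34 genes. The control libraries themselves were within 1.2-fold of each other for 28 genes, and their median log2 difference was 0.15 for the markers and 0.19 for all genes. The standard deviation of log2 CPM over the deleted libraries had a median of 0.73 for the markers, against 0.17 for all genes.

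**Figure D2:**
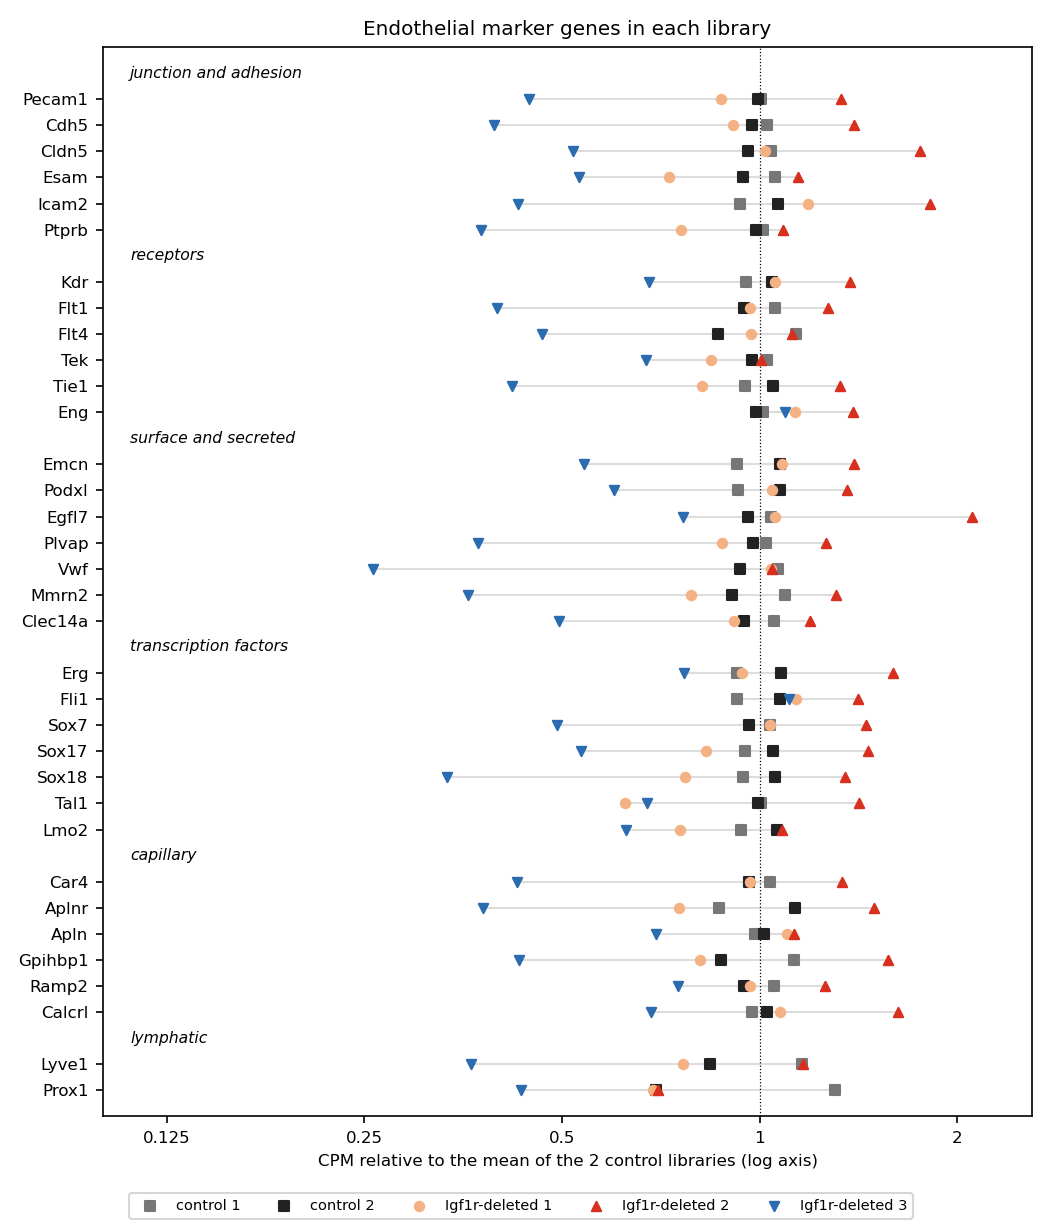
CPM of each of the 34 endothelial markers in the 5 libraries, relative to the mean of the 2 control libraries (log axis), grouped by role. Igf1r-deleted replicate 2 (red triangles) is the highest library for 30 genes and Igf1r-deleted replicate 3 (blue triangles) the lowest for 31; the grey line joins the lowest and highest library of a gene.

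The junction and adhesion genes showed this order in all 6 cases. Pecam1 (chr11:106654217-106750628, minus strand, mm10), which encodes the adhesion receptor CD31, was at 90.7 and 89.9 CPM in the controls and at 78.9, 120 and 40.2 CPM in deleted replicates 1 to 3. Cdh5 (chr8:104101625-104144511, plus strand), which encodes VE-cadherin, was at 152 and 144 CPM in the controls and at 135, 206 and 58.4 CPM in the deleted libraries. For both genes the controls were close to each other and the deleted replicates spanned them, so the groups overlapped. Replicate 2 exceeded replicate 3 by 2.99-fold for Pecam1 (95% interval for counting error only, 2.82 to 3.17) and by 3.53-fold for Cdh5 (3.37 to 3.71). Cldn5, the tight junction claudin of endothelium, was at 105 and 97.0 CPM in the controls and at 103, 177 and 52.6 CPM in the deleted libraries. Icam2, an intercellular adhesion molecule, had the largest ratio of replicate 2 to replicate 3 of any marker, 4.24 (3.61 to 4.997), with 21.6 and 5.09 CPM. Esam, an adhesion molecule of endothelial junctions, and Ptprb, the phosphatase that acts on VE-cadherin and TIE2, were, like Pecam1 and Cdh5, below both controls in replicate 1 as well, as were 17 of the 34 markers. Esam was at 29.8 and 26.6 CPM in the controls against 20.5, 32.3 and 15.0 CPM in the deleted libraries, and Ptprb at 90.1 and 87.9 CPM and 67.7, 96.5 and 33.5 CPM. Replicates 1 and 3 of both genes therefore lay below the controls while replicate 2 lay above.

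Growth factor receptors varied less in common. Kdr (chr5:75932827-75978458, minus strand), the main receptor of VEGF-A, was at 49.5 and 54.1 CPM in the controls and at 54.6, 71.1 and 35.2 CPM in the deleted libraries. Flt1, a high-affinity VEGF receptor that also occurs in a soluble form, was at 13.9 and 12.5 CPM and at 12.8, 16.8 and 5.26 CPM. Tie1, a co-receptor of the angiopoietin receptor, was at 38.9 and 42.9 CPM and at 33.5, 54.3 and 17.1 CPM. In these 3 genes replicate 3 was the lowest library and replicate 2 the highest. Tek, which encodes the angiopoietin receptor TIE2, had a narrower range of 50.5 and 47.8 CPM in the controls against 41.5, 49.4 and 33.0 CPM in the deleted libraries, and its highest library was control 1. Flt4, the receptor of VEGF-C on lymphatic vessels, was also highest in control 1, with 15.1 and 11.5 CPM in the controls against 12.9, 14.9 and 6.18 CPM in the deleted libraries.

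Eng (chr2:32646595-32682669, plus strand), which encodes the TGF-β and BMP9 co-receptor endoglin, was not low in replicate 3. It was at 174 and 170 CPM in the controls and at 194, 239 and 187 CPM in the deleted libraries, a mean of 172 ± 3.01 CPM (SD, n = 2) against 207 ± 27.7 CPM (SD, n = 3). All deleted libraries lay above both controls, with a log2 fold change of 0.27 (SE 0.13, 95% interval -0.03 to 0.57) that did not pass the test (edgeR, adjusted p = 0.430). Fli1 (chr9:32422204-32542861, minus strand), an ETS factor of endothelial and blood cells, was the only other marker whose groups did not overlap. It was at 13.4 and 15.5 CPM in the controls and at 16.4, 20.4 and 16.03 CPM in the deleted libraries, with a log2 fold change of 0.29 (SE 0.16, edgeR adjusted p = 0.475). These genes had the smallest ratio of replicate 2 to replicate 3, 1.27 in each case, with counting intervals of 1.23 to 1.31 for Eng and 1.14 to 1.42 for Fli1. Relative to Cdh5, Eng was at 1.14 and 1.18 in the controls and 1.44, 1.16 and 3.21 in the deleted libraries, and Fli1 at 0.0880 and 0.108 in the controls and 0.121, 0.0990 and 0.275 in the deleted libraries. Cdh5 was itself low in replicate 3, and 21 of the 33 other markers, these included, had their highest ratio to Cdh5 there. Among the markers other than Eng and Fli1, that ratio exceeded the highest value of the other libraries by at most 1.80-fold (Ramp2). The source of the Eng and Fli1 RNA in these libraries was not tested.

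Among the surface and secreted proteins, Vwf (chr6:125546774-125686679, plus strand), the von Willebrand factor of larger vessels and platelets, stood out for a low value in replicate 3 alone. It was at 52.7 and 46.1 CPM in the controls and at 51.4, 51.7 and 12.7 CPM in the deleted libraries. Replicates 1 and 2 were within the range of the controls, and the ratio of replicate 2 to replicate 3 was 4.05 (3.66 to 4.50). Egfl7 (chr2:26580014-26593120, plus strand), a secreted protein of the vessel wall, had its extreme in replicate 2, with 13.4 and 12.3 CPM in the controls against 13.5, 27.0 and 9.82 CPM in the deleted libraries. Exons of other genes cover 11.2% of its exon length, so part of its counts may belong to them. Plvap, the diaphragm protein of fenestrae and caveolae, was at 65.2 and 62.2 CPM and at 55.8, 80.5 and 23.7 CPM. Emcn and Podxl, which encode sialomucins of the luminal surface, were at 4.67 and 5.43 CPM and at 59.4 and 68.9 CPM in the controls, and their deleted values spanned 2.73 to 7.04 CPM and 38.5 to 87.1 CPM. Mmrn2 and Clec14a, an extracellular matrix protein and the surface lectin that binds it, had the same order, with 4.73 to 17.2 CPM and 29.4 to 71.1 CPM in the deleted libraries and 14.3 and 11.9 CPM and 62.6 and 56.5 CPM in the controls.

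All 7 transcription factors were highest in replicate 2. Erg (chr16:95359169-95586593, minus strand), the ETS factor that keeps endothelial identity, was at 13.9 and 16.2 CPM in the controls and at 14.1, 24.0 and 11.5 CPM in the deleted libraries. The SOX factors of the vessel wall differed in how low they were in replicate 3. Sox18 was at 18.5 and 20.7 CPM in the controls and at 15.1, 26.5 and 6.54 CPM in the deleted libraries, a ratio of replicate 2 to replicate 3 of 4.05. Sox7 was at 16.7 and 15.6 CPM and at 16.7, 23.5 and 7.93 CPM, and Sox17 was at 13.6 and 15.0 CPM and at 11.8, 20.9 and 7.63 CPM. An annotated gene on the opposite strand covers 16.8% of the exon length of Sox17, and the use of strand in counting is not given in the sources used here. Tal1 and Lmo2, partners in a complex shared by endothelial and blood precursors, were at 3.20 and 3.17 CPM and at 14.9 and 16.8 CPM in the controls. In the deleted libraries Tal1 was at 1.98, 4.50 and 2.14 CPM, the only marker that was lowest in replicate 1, and Lmo2 was at 11.99, 17.1 and 9.94 CPM.

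All 6 capillary genes had replicate 2 as the highest and replicate 3 as the lowest library. Aplnr, the apelin receptor that marks general capillary cells, was at 39.2 and 51.2 CPM in the controls and at 34.1, 67.5 and 17.1 CPM in the deleted libraries. Its ligand Apln, made by aerocytes and tip cells, varied less, with 20.1 and 20.7 CPM in the controls against 22.4, 23.0 and 14.2 CPM in the deleted libraries. Gpihbp1, which carries lipoprotein lipase to the capillary lumen, was at 8.67 and 6.71 CPM and at 6.23, 12.05 and 3.31 CPM. Car4 was at 6.97 and 6.47 CPM and at 6.49, 8.98 and 2.87 CPM. The markers of aerocytes and of general capillary cells were thus all higher in replicate 2 than in replicate 3. Calcrl and Ramp2, which form the adrenomedullin receptor, were at 69.5 and 73.4 CPM and at 39.9 and 35.9 CPM in the controls. In the deleted libraries Calcrl was at 76.7, 116 and 48.8 CPM and Ramp2 at 36.6, 47.7 and 28.5 CPM. A neighbouring gene on the same strand covers 33.4% of the exon length of Ramp2, so its counts are the least certain of the 34.

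The lymphatic genes did not share one order. Lyve1 (chr7:110850607-110863239, minus strand), a hyaluronan receptor, was at 52.9 and 38.3 CPM in the controls and at 34.9, 53.1 and 16.6 CPM in the deleted libraries. Prox1 (chr1:190118035-190170714, minus strand), the transcription factor that sets lymphatic identity, was at 6.71 and 3.57 CPM in the controls and at 3.54, 3.596 and 2.23 CPM in the deleted libraries. Control 1 was above every other library for Prox1, while control 2 lay among the deleted libraries.

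None of the 34 markers differed between the genotypes by the test. The edgeR quasi-likelihood F test, adjusted over 15298 genes, called 0 markers at an adjusted p under 0.05, and 0 at an unadjusted p under 0.05, against 12.4% of all genes at that unadjusted p (6.75% lower and 5.65% higher). No gene of the whole table passed the adjusted threshold in this test, with a smallest adjusted p of 0.306. The deleted gene Igf1r did not pass it either (log2 fold change -0.93, edgeR adjusted p = 0.354), although DESeq2 called it (adjusted p = 1.06e-05). The lack of a call therefore does not show that the markers were unchanged. DESeq2 called 200 genes (1.31%) and none of the 34, of which it gave 0 an unadjusted p under 0.05. It gave no adjusted p to 3563 of the 15298 genes, Tal1 among them, so these could not be called. The groups did not overlap for 2 of the 34 (Eng and Fli1), against 31% of all genes. With 2 against 3 libraries whose relation to separate litters is not given, the p-values measure only the spread between these libraries, which may be technical.

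By the sign of the fitted log2 fold change, 24 markers were lower and 10 higher in the deleted libraries, against 47.7% of all genes lower. The median over the markers was -0.15, and over all genes 0.01. The intervals were wide. Pecam1 had a log2 fold change of -0.18 (SE 0.38, 95% interval -1.07 to 0.71, edgeR adjusted p = 0.855) and Cdh5 one of -0.15 (SE 0.43, -1.16 to 0.86, adjusted p = 0.895). Kdr was at 0.05 (SE 0.26, -0.56 to 0.66, adjusted p = 0.946) and Erg at 0.14 (SE 0.30, -0.55 to 0.84, adjusted p = 0.854). The log2 differences of these defining markers were thus smaller than their standard errors, and the intervals left room for a change in either direction.

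The largest absolute log2 fold change was that of Prox1, at -0.72 (SE 0.35, 95% interval -1.53 to 0.09, edgeR adjusted p = 0.435). It rested on control 1, since it was -0.20 without that library and -1.11 without control 2. Ptprb was at -0.43 (SE 0.36, -1.29 to 0.42, adjusted p = 0.638) and Lyve1 at -0.39 (SE 0.41, -1.35 to 0.58, adjusted p = 0.712). Vwf was at -0.36 (SE 0.50, -1.54 to 0.83, adjusted p = 0.783), and Egfl7 at 0.39 (SE 0.39, -0.52 to 1.30, adjusted p = 0.693).

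Which deleted library was left out set the direction of the markers as a group. Without replicate 2, 32 of the 34 were lower, the median log2 fold change was -0.53 and the summed CPM was 0.755 of that of the controls. In that subset 17 genes lay below both controls (19.8% of all genes did) and 2 above (20.1% of all), and 5 genes (Esam, Ptprb, Tek, Lmo2 and Aplnr) had an unadjusted p under 0.05, against 6.58% of all genes, with an edgeR adjusted p of 0.711 for each. Without replicate 3, 28 of the 34 were higher, the median was 0.16 and the summed ratio 1.14. There 9 genes lay above both controls (20.4% of all) and 0 below (19.6% of all), and Icam2 alone had an unadjusted p under 0.05 (adjusted p = 0.665, against 7.35% of all genes at that unadjusted p). Without replicate 1 the median stayed at -0.15.

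**Figure D3:**
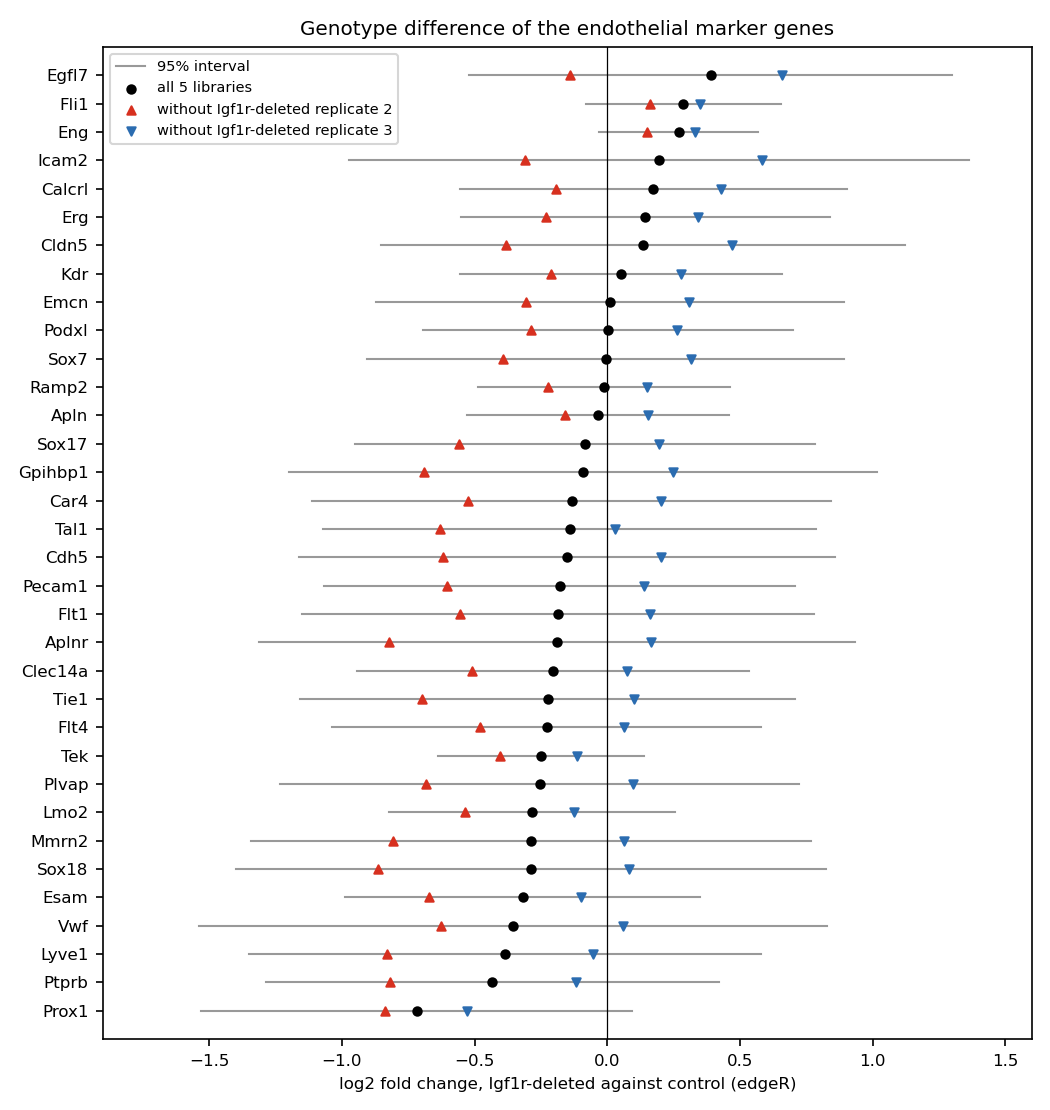
Log2 fold change of each endothelial marker, Igf1r-deleted against control, from edgeR on all 5 libraries (black points with 95% intervals) and without Igf1r-deleted replicate 2 (red) or 3 (blue). The interval of each of the 34 genes includes 0, and the points move from 32 lower without replicate 2 to 28 higher without replicate 3.

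The libraries also differed in sex, as read from Xist and the Y-linked Ddx3y. Both controls and deleted replicate 2 had Ddx3y at 85.6 to 114 CPM and Xist at 0.302 to 4.09 CPM, as in males, and deleted replicates 1 and 3 had Ddx3y at 0.0557 to 0.227 CPM and Xist at 170 and 435 CPM, as in females. The deleted library with the highest endothelial sum was thus the male one. No control was female, so that sex and genotype cannot be told apart for the female libraries. With sex as a term, which was added after seeing the data and leaves replicate 2 as the only deleted library to compare with the male controls, 33 of the 34 markers were higher with a median log2 fold change of 0.43. Then 5 genes (Eng, Egfl7, Erg, Fli1 and Calcrl) had an unadjusted p under 0.05, against 8.82% of all genes, with an edgeR adjusted p of 0.563 for each. These values rest on 1 deleted library, with the spread taken from the 2 controls and from the 2 female libraries, and show again that replicate 2 was high. The replicate number as a block gave a median of 0.14, and 5 genes with an unadjusted p under 0.05 (Icam2, Eng, Egfl7, Fli1 and Calcrl, adjusted p 0.202 to 0.350), against 13.4% of all genes.

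Markers of other cell types were summed in the same way to see which of them moved with the endothelial genes. The 20 epithelial markers were at 0.718, 1.03 and 0.478 of the control mean in deleted replicates 1 to 3, and all 20 were higher in replicate 2 than in replicate 3. The 20 leukocyte markers were at 0.915, 0.616 and 0.393, while the controls were at 1.196 and 0.804. Pericyte markers were at 1.03, 1.03 and 0.874, mesothelial markers at 0.847, 0.752 and 1.03, and fibroblast markers at 0.977, 0.725 and 0.809. Leukocyte and fibroblast sums were thus below the controls in both replicates 2 and 3, the epithelial sum was low in replicate 3 and not in replicate 2, and the mesothelial sum was low in replicate 2 and not in replicate 3. The part of these shifts in the endothelial values was not tested.

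**Figure D4:**
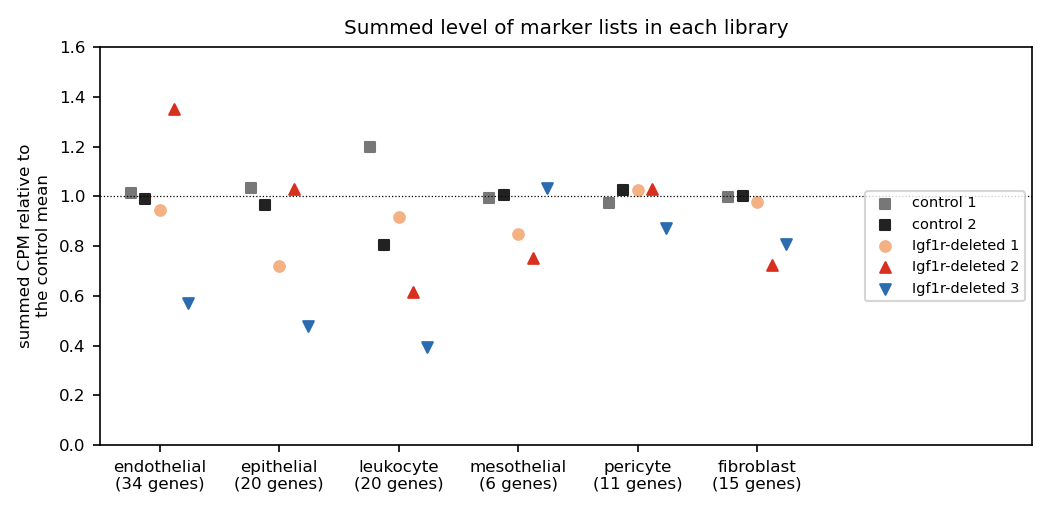
Summed CPM of 6 marker lists in each library, relative to the mean of the 2 control libraries (axis from 0). The endothelial sum runs from 0.570 in Igf1r-deleted replicate 3 to 1.35 in replicate 2, the epithelial sum is also lowest in replicate 3, and the mesothelial sum is highest there.

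By genotype, 18 of the 20 epithelial markers were lower, 3 of them at an unadjusted p under 0.05 against 6.75% of all genes (Napsa, Sftpd and Sftpa1, products of alveolar type 2 cells, each with an edgeR adjusted p of 0.354 to 0.364). Epcam, the defining epithelial marker, was at 4.35 and 5.10 CPM in the controls and at 3.83, 4.40 and 1.92 CPM in the deleted libraries. All 20 leukocyte markers were lower, 5 at an unadjusted p under 0.05 (Cd79a, Cd68, Marco, Laptm5 and Cd52) against 6.75% of all genes, and 15 of the 20 were highest in control 1. Ptprc, which encodes CD45, was at 31.1 and 25.5 CPM in the controls and at 28.7, 12.5 and 12.2 CPM in the deleted libraries. DESeq2 called 1 of the 20, against 1.31% of all genes, the B cell gene Cd79a, at 10.2 and 11.2 CPM in the controls against 5.81, 1.86 and 2.53 CPM in the deleted libraries. The endothelial markers held no gene at that unadjusted p, and their largest sum was in deleted replicate 2. Their order was partly shared by the epithelial list. Of its 20 genes, 12 were highest in deleted replicate 2 (20% of all genes) and 17 were lowest in replicate 3 (20.4% of all). Both held for 10 of the 20 (3.32% of all). A difference between the lists was not tested.

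**Figure D5:**
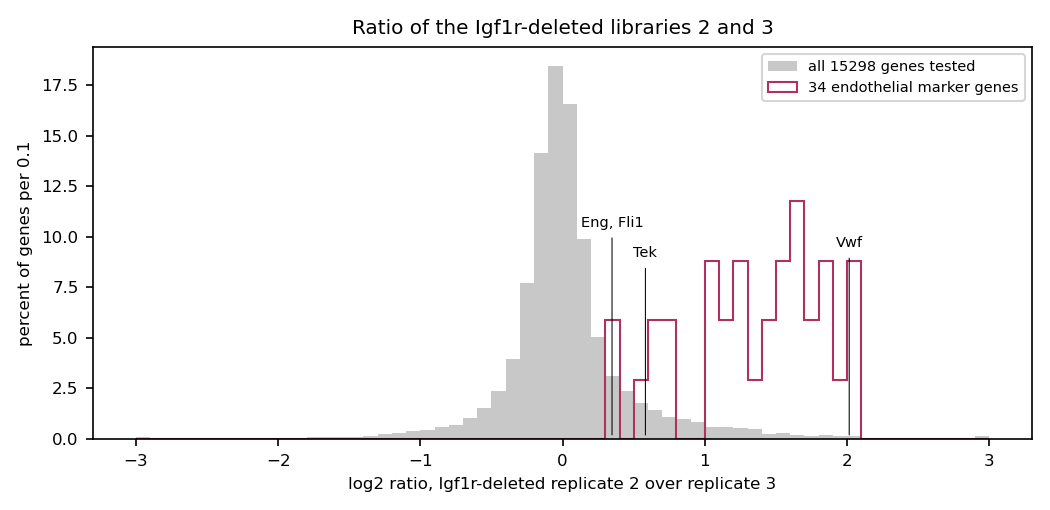
Distribution of the log2 ratio of CPM in Igf1r-deleted replicate 2 to replicate 3, as the percent of genes per bin of 0.1, for all 15298 genes tested (grey) and for the 34 endothelial markers (red outline), with values beyond 3 drawn at the edge. The markers lie between 0.35 and 2.07 with a median of 1.45, and all genes centre near 0; Eng, Fli1 and Tek are at the low end and Vwf is near the high end.

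A further 42 genes linked to endothelium (arterial, venous, capillary and general markers, out of 43 listed) showed how far the ratio of replicates 2 and 3 reached. In this list 23 genes had a ratio of at least 1.5 and 19 a lower one. Those above it had a median of 2.49 CPM per kb over 22 genes with a length (range 0.0859 to 22.6), and included Cd93, Robo4, Nos3, Dll4 and Gja4. Those below it had a median of 32.1 CPM per kb over 18 genes, with an overlapping range of 0.366 to 369. They included Cd34, Thbd, Nr2f2, Tmem100, Gja5 and Kitl, and also S1pr1, Acvrl1, Ephb4, Cd300lg, Ackr1 and Sele. The sum over the 42 genes, weighted by level, was at 1.05, 1.10 and 1.02 of the control mean in deleted replicates 1 to 3. Cd34, Nr2f2 and Kitl are known from fibroblasts or other stromal cells too, and the source of their RNA in these libraries was not tested. Nos3, the endothelial nitric oxide synthase, was at 3.43 and 3.17 CPM in the controls and at 3.17, 5.53 and 1.002 CPM in the deleted libraries, the same order as Pecam1 and Cdh5.

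By genotype, 27 of the 42 were lower and 15 higher, of which 3 were higher at an unadjusted p under 0.05, against 5.65% of all genes. Tmem100, a BMP9 and ALK1 target, was at 111 and 91.6 CPM in the controls and at 153, 163 and 157 CPM in the deleted libraries. Its log2 fold change was 0.64 (SE 0.11, 95% interval 0.37 to 0.91, edgeR adjusted p = 0.354, DESeq2 adjusted p = 0.000653). Gja5, which encodes the arterial connexin 40, was at 86.4 and 87.3 CPM in the controls and at 118, 138 and 139 CPM in the deleted libraries, a log2 fold change of 0.60 (SE 0.11, 0.35 to 0.86, edgeR adjusted p = 0.354, DESeq2 adjusted p = 0.000921). For both genes all deleted libraries lay above both controls and replicates 2 and 3 were alike. The value of replicate 3 did not follow that of Cdh5, and the source of the Tmem100 and Gja5 RNA was not tested. The third was Tbx3, a T-box transcription factor also made by lung mesenchyme, at 134 and 138 CPM in the controls against 147, 207 and 182 CPM in the deleted libraries (log2 fold change 0.39, edgeR adjusted p = 0.376). The smallest p among the genes that were lower was that of Cd36, a fatty acid transporter of capillaries, at 64.8 and 72.0 CPM in the controls against 48.2, 58.4 and 29.1 CPM in the deleted libraries (log2 fold change -0.60, edgeR adjusted p = 0.401).

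Ligands and partners of the marker receptors, many of them known to be made by stromal cells, were the last group. Of 23 listed genes 19 were tested, of which 10 were lower and 9 higher, and 1 had an unadjusted p under 0.05, against 12.4% of all genes. Vegfa, the ligand of Kdr and Flt1, was at 200 and 253 CPM in the controls and at 271, 233 and 264 CPM in the deleted libraries (log2 fold change 0.18, edgeR adjusted p = 0.592). Angpt1, the activating ligand of TIE2, was at 230 and 208 CPM in the controls and at 208, 147 and 153 CPM in the deleted libraries (log2 fold change -0.37, adjusted p = 0.406). The gene at an unadjusted p under 0.05 was Nrp1, a co-receptor of VEGF that is also made by fibroblasts. It was at 943 and 532 CPM in the controls and at 577, 354 and 370 CPM in the deleted libraries, so the groups overlapped, with a log2 fold change of -0.77 (SE 0.29, edgeR adjusted p = 0.375) that was -0.30 without control 1. None of these passed the test, and their order across the deleted libraries was not that of the endothelial markers. Only 10 of the 23 listed genes were higher in replicate 2 than in replicate 3. Over the tested ones the median ratio of replicate 2 to replicate 3 was 0.960.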

How the data were processed

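The libraries (2 control, 3 Igf1r-deleted) were grouped by their sample titles, which give genotype and replicate number. Read trimming (Trim Galore), alignment to mm10 (Bowtie2) and counting on genes (GenomicAlignments) were done by the authors, who deposited raw counts for each gene symbol. Versions of these tools, the annotation and whether counting used strand are not given in the sources used here, so that antisense or overlapping genes may share counts. The study tested its counts with DESeq.

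Totals ranged from 35116766 to 37597857 counts, and intervals on ratios between libraries cover counting error only. A quasi-likelihood F test (two-sided) was run in edgeR 4.0.16 under R 4.3.3, after filterByExpr with the groups and TMM scaling. The model held genotype alone, and p-values were adjusted by Benjamini-Hochberg over all 15298 genes kept. The procedure was tested on simulated data. CPM values use TMM-scaled library sizes, and log2 CPM a prior count of 2. Exon lengths and positions are from GENCODE (mm10), and promoters from RefSeq.

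The rule for the markers uses no measured value, but the markers, companion lists and tests were chosen with earlier results of these data known. Full statistics are given for Pecam1, Cdh5, Kdr, Erg and Vwf, for any marker with an unadjusted p under 0.05 (0 markers) and for the 5 markers with the largest absolute log2 fold change. Of the epithelial, leukocyte, further endothelial and ligand lists, the defining gene and genes with a small p are named, not all with full statistics. Genes of the fibroblast, mesothelial and erythroid lists are not named. Of the 15 fibroblast genes, 1 was lower (6.75% of all genes) and 2 were higher (5.65% of all) at an unadjusted p under 0.05 in edgeR. DESeq2 called 2 of them, against 1.31% of all genes. Eng and Fli1 were singled out after their values were seen, as the markers whose groups did not overlap, and the other markers are given by level and order. Of the erythroid and megakaryocyte list (13 genes) 6 were tested, 3 lower and 3 higher, none with an unadjusted p under 0.05. Its summed level in the deleted libraries was 0.569 to 1.45 of the control mean. Of the 11 pericyte genes, Rgs5 and Abcc9 were lower at that p, against 6.75% of all genes. Ccl21a could not be matched in the table.

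Alternatives were the Wald test of DESeq2 1.42.0, limma 3.58.1 with voom, scaling by DESeq2 size factors, by upper quartiles or by library totals, a filter that kept genes with 1 count anywhere or only genes with 10 counts throughout, a robust fit, the replicate number as a block, and leaving out each library. A sex term was added after seeing the data.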

Additional observations from a re-analysis of the deposited data

How the results depend on the processing

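The number of markers with an unadjusted p under 0.05 was 0 with each planned setting that kept all 5 libraries, with 2 exceptions. These were library totals (1, Eng) and the replicate block (5, against 13.4% of all genes). The share over all genes was 12.4% in the main fit and was not computed for library totals. No setting gave a marker an adjusted p under 0.05. The genes of the whole table past the adjusted threshold numbered 0 by edgeR, 200 by DESeq2 and 136 with the replicate block. The signs of small log2 fold changes were not stable. They changed to Podxl -0.0082 with DESeq2 size factors, to Podxl -0.0045 with the stricter filter, to Emcn -8.7e-05 and Podxl -0.0084 with the DESeq2 Wald test, to Sox7 0.0079 and Ramp2 0.0010 with upper-quartile factors, to Sox7 0.073, Apln 0.037, Ramp2 0.067 and Nos3 0.061 with library totals, and to Cldn5 -0.034, Icam2 -0.015, Kdr -0.0041, Emcn -0.079 and Podxl -0.072 with limma voom. The labels number the replicates but name no shared litter or batch. The deviations of same-numbered libraries correlated at 0.21 and 0.12 across genes. The deviations of 2 controls from their mean are mirror images, so the crossed pairs had to give the negatives, -0.21 and -0.12. With only 2 pairs the numbers are not shown to pair the samples. The replicate block leaves deleted replicate 3 without a partner, so it sets aside the lowest library, and it gave Pecam1 0.11, Cdh5 0.17, Flt1 0.15, Flt4 0.075, Tie1 0.065, Plvap 0.076, Vwf 0.064, Mmrn2 0.031, Clec14a 0.067, Sox7 0.30, Sox17 0.15, Sox18 0.035, Car4 0.19, Aplnr 0.10, Apln 0.16, Gpihbp1 0.19, Ramp2 0.14 and Nos3 0.36. With the sex term the median was 0.43, and the changed signs were Pecam1 0.41, Cdh5 0.48, Esam 0.19, Ptprb 0.12, Flt1 0.35, Flt4 0.17, Tek 0.0087, Tie1 0.41, Plvap 0.34, Vwf 0.065, Mmrn2 0.39, Clec14a 0.26, Sox7 0.54, Sox17 0.55, Sox18 0.43, Tal1 0.50, Lmo2 0.11, Car4 0.42, Aplnr 0.58, Apln 0.18, Gpihbp1 0.65, Ramp2 0.33, Lyve1 0.22 and Nos3 0.75. Leaving out each library in turn gave 0 to 45 genes past the adjusted threshold, 0 to 5 markers with an unadjusted p under 0.05, 2 to 19 markers whose groups did not overlap, and a median of -0.53 to 0.16, with both extremes of the median reached without deleted replicates 2 and 3. Over those fits the log2 fold changes that changed sign ranged as follows: Kdr -0.21 to 0.28, Emcn -0.31 to 0.31, Podxl -0.29 to 0.26, Sox7 -0.39 to 0.31, Gpihbp1 -0.69 to 0.25, Ramp2 -0.23 to 0.15, Nos3 -0.66 to 0.40, Aplnr -0.82 to 0.17, Tal1 -0.63 to 0.063, Cldn5 -0.38 to 0.47, Icam2 -0.31 to 0.58, Egfl7 -0.14 to 0.66, Erg -0.23 to 0.34, Calcrl -0.19 to 0.43, Pecam1 -0.61 to 0.14, Cdh5 -0.62 to 0.20, Flt1 -0.55 to 0.16, Flt4 -0.48 to 0.063, Tie1 -0.70 to 0.099, Plvap -0.68 to 0.095, Vwf -0.63 to 0.058, Mmrn2 -0.81 to 0.064, Clec14a -0.51 to 0.074, Sox17 -0.56 to 0.19, Sox18 -0.86 to 0.082, Car4 -0.53 to 0.20 and Apln -0.16 to 0.15.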
